A study of Mus musculus with 10 samples.

Results

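The genes described are 9 members of the JAK-STAT-SOCS pathway, chosen by name from the deposited gene table: the transcription factors Stat2, Stat3, Stat5a, Stat5b and Stat6, the kinases Jak1 and Jak2, and the feedback inhibitors Socs2 and Socs3. They are 9 of the 55417 named genes in the table, and all 9 had enough counts to be tested. RNA was sequenced from 10 mouse mammary carcinoma lines, 1 library each, in a study of how tumour cells change between the primary site, the blood and the lung. By tissue of origin the 9 derived lines form 3 groups of 3: lung metastasis lines 5, 3 and 7, circulating tumour cell (CTC) lines 1, 3 and 6, and primary lines 5, 7 and 8 from fat pad xenografts. They are set against the parental line 4T1-hHER2, a BALB/cfC3H mammary gland line infected with a lentivirus for stable expression of human HER2 and luciferase. All 9 derived lines go back to this construct and carry the strain label NOD-SCID-GAMMA (NSG), a mouse without mature lymphocytes or natural killer cells. Per the labels, each of them goes back to CTCs collected from NSG mice with orthotopic 4T1-hHER2-Luc tumours that had spread, so passage through a mouse and through the blood is shared by all 3 derived groups. The primary lines are thus xenografts grown from CTC-derived cells and not the first tumours. The sources used here do not say whether lines of a group came from separate mice, so a p-value reflects no more than the spread from line to line.

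In this pathway, a cytokine or growth factor binds a receptor chain that has no kinase of its own, and JAK kinases held on the receptor phosphorylate it and the STAT proteins that dock there. Phosphorylated STATs pair, enter the nucleus and switch on target genes, among them the SOCS genes, whose products block the receptor and the JAKs and so close a feedback loop. In the mammary gland, STAT5 proteins drive milk protein genes in pregnancy, STAT3 acts in involution after weaning, and STAT6 acts in early luminal development. These functions depend on phosphorylation, which RNA levels do not measure.

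The libraries held between 79869760 and 97722716 estimated counts. Levels are CPM, that is, counts divided by a library size scaled with TMM factors. All 9 epithelial marker genes were above 1 CPM in at least 1 line of every group. Their sum was 1300 to 2950 CPM in metastasis and 1580 to 2700 CPM in CTC libraries. It was 2160 to 3980 CPM in primary and 1800 CPM in parental libraries. In metastasis against primary lines 8 were lower and 1 higher, with a median log2 change of -1.99, beside 0.01 over all genes. In CTC against primary lines 7 were lower and 2 higher, with a median of -2.37, beside -0.01. At an unadjusted p under 0.05 in edgeR there were 4 and 6 of the 9, beside 8.29% and 4.06% of all genes. After adjustment 0 passed in either comparison. Markers of other cell types were low, apart from 3 fibroblast markers. The 12 leukocyte markers summed to at most 7.64 CPM, mostly Cd68, and the defining gene Ptprc reached 0.232 CPM. The 7 endothelial markers summed to at most 11.6 CPM, the 7 lung epithelial markers to at most 4.8 CPM with Sftpc at 0, and the 6 adipocyte markers to at most 0.316 CPM. The 9 fibroblast markers summed to 16.2 to 303 CPM in metastasis, 11.2 to 142 CPM in CTC, 5.07 to 77.3 CPM in primary and 5.45 CPM in parental libraries, led by the receptor gene Pdgfra. Pdgfra was at 269, 126 and 11.3 CPM in metastasis lines 5, 3 and 7, at 72.3, 141 and 10.1 CPM in CTC lines 1, 3 and 6, and at 58.1, 4.84 and 4.05 CPM in primary lines 5, 7 and 8, against 4.45 CPM in the parental line. Pdgfrb reached 18.7 CPM in metastasis line 5 and 15.3 CPM in primary line 5, Dcn reached 12.4 CPM in metastasis line 5, and the other 6, collagen genes among them, were at most 2.32 CPM (Col1a1). The part of these markers in the results below was not tested, and in bulk RNA fewer cells that express a gene and less RNA per cell cannot be told apart.

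None of the 9 genes passed edgeR's quasi-likelihood test, adjusted by the Benjamini-Hochberg method, at 0.05 in any of the 5 comparisons. In metastasis against primary lines 0 of 9 passed, as did 0% of the 19935 genes tested, and the smallest adjusted p of the 9 was 0.655 (edgeR, Stat5a). In CTC against primary lines 0 of 9 passed beside 0% of all genes, with a smallest adjusted p of 0.994 in edgeR. In metastasis against CTC lines 0 of 9 passed beside 0.00502% of all genes, with adjusted p of 1 for each in edgeR. For any difference among the 3 derived groups 0 of 9 passed beside 0% of all genes, with a smallest adjusted p of 0.913 in edgeR. For derived lines against parental 0 of 9 passed beside 0.0201% of all genes, with a smallest adjusted p of 0.162 in edgeR, for Stat6.

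At an unadjusted p under 0.05, 0 of 9 members were found in each comparison among the derived groups, where the shares of all genes were 8.29% in metastasis against primary lines, 4.06% in CTC against primary lines, 3.29% in metastasis against CTC lines and 5.2% for any difference. Against parental, 2 of 9 members, Stat6 and Stat5a, had an unadjusted p under 0.05, beside 10.3% of all genes. No member had groups that did not overlap in the 3 pairwise comparisons, where the shares of all genes were 13.6%, 7.15% and 8.28%. The median log2 change of the members was 0.03 in metastasis against primary, 0.13 in CTC against primary and -0.12 in metastasis against CTC, beside 0.01, -0.01 and 0 over all genes. Of the 9 genes, 5 were higher in metastasis than in primary lines, 7 in CTC than in primary lines and 2 in metastasis than in CTC lines, beside 50.3%, 49.1% and 49.8% of all genes. Against parental 7 of 9 were higher, beside 53.9% of all genes, and the median log2 change was 0.51, beside 0.10 over all genes. In 4 of the 9, Stat6, Stat5a, Stat2 and Jak1, all 9 derived lines were above the parental line, beside 14.1% of all genes. The common biological coefficient of variation was 0.606.

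**Figure D1:**
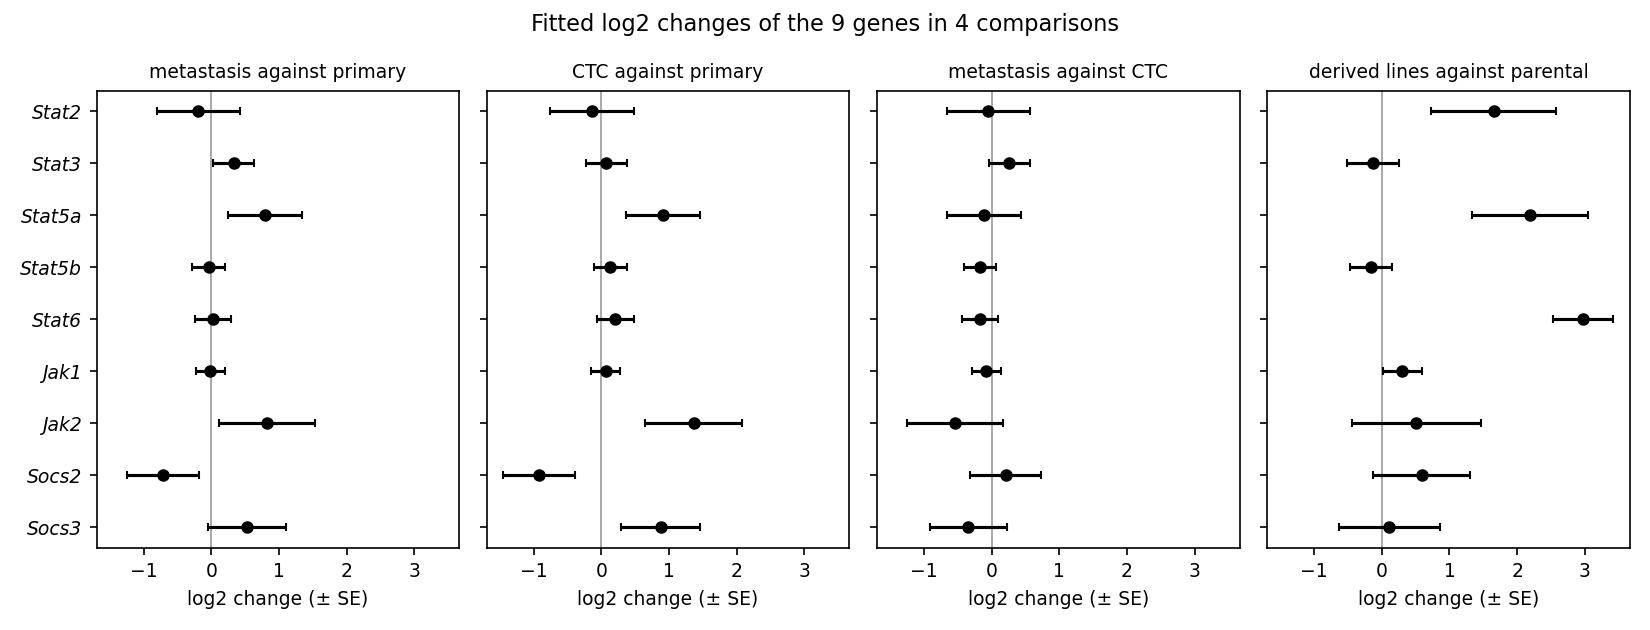
Fitted log2 change with its standard error (bars) for each of the 9 genes, with 1 panel each for metastasis against primary lines, CTC against primary lines, metastasis against CTC lines and derived lines against parental. The bars of most genes reach or lie near 0 among the derived groups, and Stat6 stands farthest from 0 against parental, at 2.98.

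Stat6, the transcription factor of interleukin 4 and interleukin 13 signalling, showed the largest gap between derived and parental lines of the 9 genes. It lies at chr10:127642986-127660957 on the plus strand of GRCm38 and shares 40 bases with Nab2 on the opposite strand. Stat6 was at 241, 218 and 194 CPM in metastasis lines 5, 3 and 7, at 316, 238 and 183 CPM in CTC lines 1, 3 and 6, and at 258, 207 and 173 CPM in primary lines 5, 7 and 8, against 28.6 CPM in the parental line. All 9 derived lines were thus far above the parental line, while the 3 derived groups overlapped throughout. The derived lines had 6.05 to 11.1 times the parental level, with a median of 7.63. The fitted log2 change was 2.98 ± 0.44 (SE), with an adjusted p of 0.162 in edgeR's quasi-likelihood test, and Stat6 ranked 10 of 19935 genes by p. The parental value rests on 2016 counts (95% exact Poisson interval 1929 to 2106, counting error only) in 1 library, which is assumed to vary as the derived lines do. With DESeq2 the adjusted p was 6.82e-12 and with limma-voom 0.0383, so that Stat6 passed in these alternatives, where 3.37% and 0.115% of all genes passed. With the title number as a random replicate block the adjusted p in limma-voom was 0.0526, and Stat6 did not pass. Over the 18 alternatives run the log2 change stayed between 2.90 and 3.06, and the adjusted p of the edgeR, DESeq2 and limma fits was at most 0.392.

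Nearly all Stat6 counts were assigned to 1 transcript, Stat6-201, which encodes 837 residues and took 99.2% to 99.7% of the gene's counts in derived lines and 96.0% in the parental line. In the test of transcripts its log2 change against parental was 3.08 ± 0.47 (SE), with an adjusted p of 0.125 in edgeR. The gene and its main coding transcript thus gave similar changes. Of the 66 transcripts of the 9 genes 44 were tested, and 0 passed against parental, beside 0.0408% of the 61244 transcripts tested. The genes with the profile most like that of Stat6 over the 10 lines were Def6 (Pearson r = 0.988), Tmem237 (r = 0.966) and Slc35d2 (r = 0.965). Over the 9 derived lines alone these correlations were lower, at 0.858, 0.85 and 0.808.

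**Figure D2:**
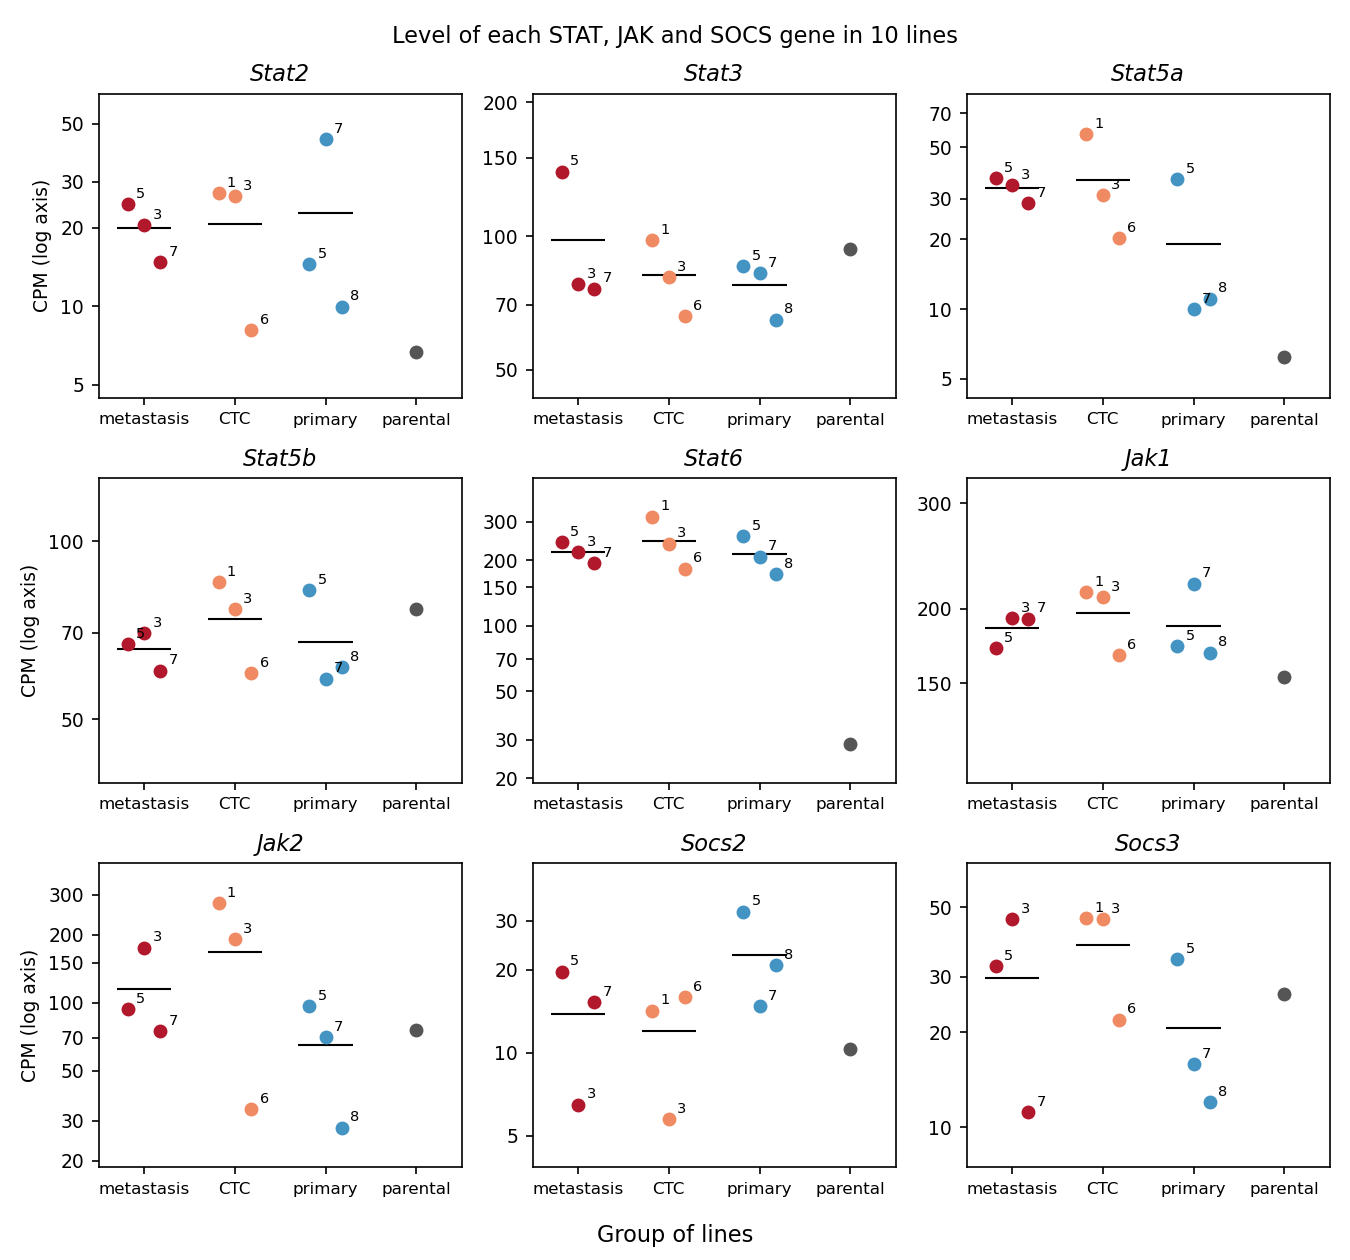
Level of each of the 9 genes in CPM (log axis) for metastasis, CTC and primary lines, with their title numbers, and for the parental line. Horizontal bars are means of 3 lines. The parental point lies below all 9 derived points in Stat6, Stat5a, Stat2 and Jak1, and derived groups overlap in every panel.

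Stat5a and Stat5b, the paired STATs of prolactin, growth hormone and interleukin 2 family signalling, lie 8626 bases apart on chromosome 11 and differed in how far they varied. Stat5a (chr11:100859351-100885169, plus strand) was at 36.8, 34.3 and 28.6 CPM in metastasis lines 5, 3 and 7, at 56.9, 31.1 and 20.3 CPM in CTC lines 1, 3 and 6, and at 36.4, 10.04 and 11.1 CPM in primary lines 5, 7 and 8, against 6.20 CPM in the parental line. The parental line was below all 9 derived lines, and primary lines 7 and 8 were the lowest of these. The log2 change of Stat5a against parental was 2.20 ± 0.86 (SE), with an adjusted p of 0.482 in edgeR's quasi-likelihood test. Stat5b (chr11:100780731-100850724, minus strand) was at 66.9, 69.9 and 60.4 CPM in metastasis lines, at 85.2, 76.8 and 59.8 CPM in CTC lines and at 82.5, 58.5 and 61.2 CPM in primary lines, against 76.8 CPM in the parental line. Stat5b thus showed no gap to the parental line, which lay above 7 of the 9 derived lines. Stat5a took 35.5%, 32.9% and 32.2% of the counts of both genes in metastasis lines 5, 3 and 7, 40.1%, 28.8% and 25.3% in CTC lines 1, 3 and 6, and 30.6%, 14.6% and 15.4% in primary lines 5, 7 and 8, against 7.47% in the parental line. Primary lines 7 and 8 came nearest to the parental share, whose exact binomial interval of 6.81% to 8.18% covers counting error only and not the spread between lines.

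The split between the genes has a limit set by their sequence. The coding sequences of Stat5a-201 and Stat5b-201 are identical at 2125 of 2343 aligned bases (90.7%), with a longest shared run of 324 bases, and 11.5% of the 100-base windows of the alignment are identical. Reads from such windows cannot be told apart, and the sources used here do not say how they were divided. Within Stat5a, the transcript Stat5a-201 (793 residues) took 58.2% to 86.4% of the counts in derived lines and 41.3% in the parental line, where Stat5a-203 (797 residues) took 50.9%. The log2 change against parental was 3.08 ± 1.15 (SE) for Stat5a-201 and 0.51 ± 0.85 (SE) for Stat5a-203, with adjusted p of 0.613 and 0.884 in edgeR. Stat5b counts were almost all in Stat5b-201, with 98.8% or more in every line. The profiles most like that of Stat5a were those of Srxn1 (r = 0.979), Zfp558 (r = 0.968) and Mocs3 (r = 0.963), and those most like Stat5b were Rsad1 (r = 0.929), Sipa1l2 (r = 0.927) and Rfx3 (r = 0.91), over 10 lines.

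Stat3, the STAT of interleukin 6 family cytokines, lies next to Stat5a at chr11:100885098-100939540 on the minus strand, and the 2 genes share 72 bases at their ends. Stat3 was at 139.7, 77.9 and 76.1 CPM in metastasis lines 5, 3 and 7, at 98, 80.8 and 65.9 CPM in CTC lines 1, 3 and 6, and at 85.5, 82.6 and 64.8 CPM in primary lines 5, 7 and 8, against 93.4 CPM in the parental line. Metastasis line 5 stood above the other lines, the rest lay within a narrow band, and 7 of 9 derived lines were below the parental line. Genes with the most similar profile were Tmem102 (r = 0.931), Zfp965 (r = 0.909) and Gbp4 (r = 0.9), over 10 lines.

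Transcript use within Stat3 varied more between lines than the total of the gene did. Stat3 makes an alpha form with a transactivation domain at its end and a beta form in which a 50-base stretch of an exon is skipped, which shifts the reading frame and replaces that domain with a short tail. The stretch lies at chr11:100889541-100889590 on the minus strand of GRCm38, and the coding sequence has 770 codons in Stat3-203 (alpha), 769 codons in Stat3-201 and 722 codons in Stat3-202 (beta). By coding length Stat3-201 is thus like alpha, so the counts of Stat3-203 are not the whole of that form. Stat3-201 took 3.43% (primary line 5) to 41.6% (primary line 7) of the counts of these 3 transcripts. The sequences around it are shown because this stretch tells the coding forms of Stat3-203 and Stat3-202 apart. The skipped stretch is in capitals, with 22 bases of shared sequence on each side.
Stat3-203: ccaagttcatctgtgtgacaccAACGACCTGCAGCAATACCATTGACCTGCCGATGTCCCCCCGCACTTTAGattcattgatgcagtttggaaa
Stat3-202: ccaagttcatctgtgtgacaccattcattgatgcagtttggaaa
The beta transcript took 23.6%, 29.3% and 40.0% of the counts of these 3 transcripts in metastasis lines 5, 3 and 7, 16.2%, 14.6% and 14.4% in CTC lines 1, 3 and 6, and 2.06%, 22.4% and 10.2% in primary lines 5, 7 and 8, against 33.3% in the parental line. All metastasis lines had a higher beta share than all CTC and primary lines, and the CTC lines were within 2 percentage points of each other. Stat3-202 was at 32.6, 22.6 and 30.2 CPM in metastasis lines, at 15.8, 11.7 and 9.39 CPM in CTC lines and at 1.71, 18.3 and 6.56 CPM in primary lines, against 30.8 CPM in the parental line. Its level in metastasis lines was thus above the other derived lines, and in lines 5 and 7 it was near the parental one. The share of all transcripts with groups that do not overlap was not computed. Of all genes, groups did not overlap in 13.6% in metastasis against primary lines and in 8.28% in metastasis against CTC lines. The log2 change of Stat3-202 was 1.59 ± 0.72 (SE) in metastasis against primary lines, with an adjusted p of 0.686 in edgeR's quasi-likelihood test, and 1.11 ± 0.71 (SE) in metastasis against CTC lines, with an adjusted p of 1. Stat3-202 was singled out after its values were seen, and it passed in neither comparison. In the same comparisons Stat3-203 differed by -0.21 ± 0.46 and 0.11 ± 0.46, and Stat3-201 by 0.34 ± 0.96 and -0.52 ± 0.96 (log2, SE). Of the 44 tested transcripts of the 9 genes, 0 passed in any comparison among the derived groups, beside 0% of the 61244 transcripts tested. At an unadjusted p under 0.05 there were 2 in metastasis against primary lines, 1 in CTC against primary lines and 4 in metastasis against CTC lines, beside 6.92%, 4.31% and 4.36% of all transcripts. For any difference among the groups there were 2, beside 5.09%, and against parental 2, Stat6-201 and Stat5a-201, beside 7.84% of all transcripts. Alpha and beta forms share most of their coding sequence, so the split between them is an estimate by the authors' tool. The annotated transcripts also differ in length outside the stretch, at 6042 bases for Stat3-202, 4516 for Stat3-203 and 2927 for Stat3-201. The part of these differences in the split was not tested, and the shares are of counts not divided by length.

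**Figure D3:**
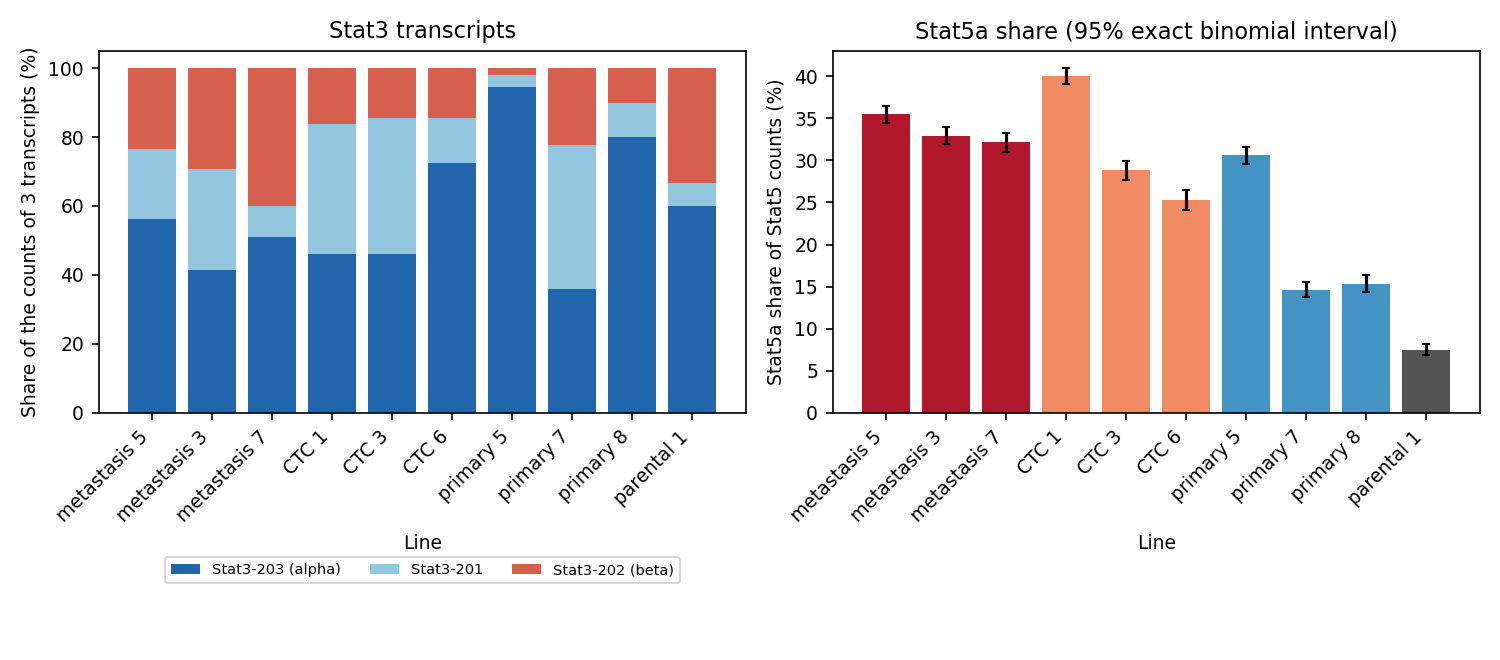
Left, share (%) of the counts of 3 Stat3 transcripts in each line. These are Stat3-203 (marked alpha), Stat3-201, which has nearly the same coding length, and Stat3-202 (beta). Right, Stat5a share (%) of the counts of Stat5a and Stat5b with 95% exact binomial intervals, which cover counting error only. Beta is largest in metastasis 7, at 40.0%, and smallest in primary 5, at 2.06%, and the parental line has the smallest Stat5a share, 7.47%.

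Stat2, which carries type I interferon signals, lies at chr10:128270559-128292849 on the plus strand. It was at 24.6, 20.4 and 14.7 CPM in metastasis lines 5, 3 and 7, at 27.1, 26.5 and 8.10 CPM in CTC lines 1, 3 and 6, and at 14.5, 43.5 and 9.96 CPM in primary lines 5, 7 and 8, against 6.69 CPM in the parental line. Primary line 7 was highest, CTC line 6 and primary line 8 were lowest among derived lines, and all 9 were above the parental line. The log2 change against parental was 1.65 ± 0.92 (SE), with an adjusted p of 0.518 in edgeR. The transcript Stat2-201 (922 residues) took 88.7% to 96.8% of Stat2 counts in derived lines and 77.3% in the parental line, where a retained-intron transcript took 14.6%. The most similar profiles were those of Grhpr (r = 0.98), Cnn2 (r = 0.976) and Tubb5 (r = 0.971), over 10 lines.

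The Stat2 promoter holds letters of an interferon-stimulated response element, a site of interferon-induced transcription to which complexes with STAT2 bind. RefSeq promoter windows on GRCm38.p6 matched 8 of the 9 genes, in 10 entries. The motif GAAANNGAAA, or TTTCNNTTTC on the other strand, was searched in the 250 bases before each start and was found in 1 of the 10 entries, that of Stat2, and in 2.98% of the 32536 windows of that length. The window at chr10:128270248-128270497 on the plus strand is shown with the match in capitals, which begins 222 bases upstream of the start annotated by RefSeq.
Stat2 promoter: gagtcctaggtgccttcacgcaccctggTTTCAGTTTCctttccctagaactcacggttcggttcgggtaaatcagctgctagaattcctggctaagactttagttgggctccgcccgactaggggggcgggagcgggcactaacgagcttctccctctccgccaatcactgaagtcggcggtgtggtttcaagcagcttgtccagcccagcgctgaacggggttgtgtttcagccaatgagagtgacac
Of a list of 33 interferon-stimulated genes, 0 passed in any comparison. In metastasis against primary lines 26 were lower and 7 higher, where 50.3% of all genes were higher. Of the 33, 6 had an unadjusted p under 0.05, beside 8.29% of all genes, and the median log2 change was -0.81, beside 0.01 over all genes. In CTC against primary lines and in metastasis against CTC lines 0 of 33 had an unadjusted p under 0.05, beside 4.06% and 3.29% of all genes. There 22 and 27 were lower, with median log2 changes of -0.35 and -0.54. For any difference among the groups there were 2 of 33, beside 5.2%. Ddx58, a sensor of viral RNA, averaged 37.7 ± 13.4 CPM in metastasis, 57.2 ± 14.7 CPM in CTC and 75.5 ± 25.6 CPM in primary lines (SD, n = 3 each), against 78.4 CPM in the parental line. Ifih1, another sensor of viral RNA, averaged 15.2 ± 5.65 CPM in metastasis, 29.0 ± 7.46 CPM in CTC and 31.9 ± 16.7 CPM in primary lines (SD, n = 3 each), against 31.0 CPM in the parental line. Ifi44 and the chemokine gene Cxcl10 averaged 3.88 ± 2.77 and 1.51 ± 1.36 CPM in metastasis lines, against 20.9 ± 16.1 and 15 ± 11.7 CPM in primary lines (SD, n = 3 each). Stat2 itself differed by -0.19 ± 0.62 (log2, SE) in metastasis against primary lines.

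Jak1 and Jak2 are the kinases of the set, and they were the steadiest and the most variable of the 9 genes. Jak1, which serves interferon, interleukin 6 family and interleukin 4 receptors, lies at chr4:101152367-101265282 on the minus strand. It was at 172, 193 and 192 CPM in metastasis lines 5, 3 and 7, at 213, 209 and 167 CPM in CTC lines 1, 3 and 6, and at 173, 220.2 and 169 CPM in primary lines 5, 7 and 8, against 154 CPM in the parental line. The groups overlapped, and all 9 derived lines were above the parental line by 1.09 to 1.43 times. The log2 change against parental was 0.31 ± 0.29 (SE), with an adjusted p of 0.648 in edgeR. The standard deviation of log2 CPM over the 9 derived lines was 0.155, smaller than in all but 1.21% of the 11311 genes compared. Jak1 shares 4 bases with Raver2, 104 with Gm24468 and 172 with the pseudogene Gm12785, and 99.5% or more of its counts were in Jak1-201.

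Jak2, which serves the receptors of growth hormone, prolactin, erythropoietin and interferon gamma, lies at chr19:29251828-29313080 on the plus strand. It was at 93.9, 175 and 74.8 CPM in metastasis lines 5, 3 and 7, at 277, 190.5 and 33.8 CPM in CTC lines 1, 3 and 6, and at 96.2, 70.1 and 28.0 CPM in primary lines 5, 7 and 8, against 75.5 CPM in the parental line. CTC lines 1 and 3 and metastasis line 3 were high, CTC line 6 and primary line 8 were low, and the CTC group spanned nearly the whole range. The log2 change in CTC against primary lines was 1.37 ± 0.72 (SE), with an adjusted p of 0.994 in edgeR, and without CTC line 1 it was 0.79. With the title number as a fixed replicate block the change was 0.17, and with it as a random block 0.84. No CTC line shares a number with a primary line. The fixed-block value thus comes through same-number pairs with metastasis lines, and CTC lines 1 and 6 and primary line 8 add nothing to it. The Jak2 change and that of Socs2 below were singled out after their values were seen. The standard deviation of log2 CPM over the 9 derived lines was 1.10, larger than in 90.6% of the genes compared. The count ratio of Jak2 to Jak1 was 0.546, 0.907 and 0.389 in metastasis lines 5, 3 and 7, 1.3, 0.913 and 0.202 in CTC lines 1, 3 and 6, and 0.556, 0.318 and 0.166 in primary lines 5, 7 and 8, against 0.492 in the parental line. Jak2-202 (1132 residues) took 84.1% to 97.7% of Jak2 counts. The closest profiles over 10 lines were Tpm2 (r = 0.932), Chd4 (r = 0.931) and Zfp473 (r = 0.93) for Jak1, and Tbc1d8 (r = 0.974), Smyd4 (r = 0.97) and Zfp667 (r = 0.965) for Jak2.

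Socs2 and Socs3, the inhibitors, moved in different lines. Socs2, which restrains growth hormone signalling through STAT5, lies at chr10:95385362-95417180 on the minus strand. It was at 19.7, 6.48 and 15.2 CPM in metastasis lines 5, 3 and 7, at 14.2, 5.76 and 15.9 CPM in CTC lines 1, 3 and 6, and at 32.4, 14.7 and 20.7 CPM in primary lines 5, 7 and 8, against 10.3 CPM in the parental line. Metastasis line 3 and CTC line 3 were the only lines below the parental one, primary line 5 was highest, and the groups overlapped. The log2 change in CTC against primary lines was -0.92 ± 0.53 (SE), with an adjusted p of 0.994 in edgeR, and it was -0.57 without primary line 5 and -0.59 without CTC line 3. With the title number as a fixed replicate block it was -0.48, a value that again comes only through same-number pairs with metastasis lines. Socs2-201 (198 residues) took 54.9% to 82.3% of the gene's counts, and the rest was spread over other transcripts. Bcl3 (r = 0.937), Tlk2 (r = 0.935) and Rtn2 (r = 0.895) had the most similar profiles.

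Socs3, which blocks the shared receptor chain of interleukin 6 family cytokines and is itself induced by STAT3, lies at chr11:117966079-117970047 on the minus strand. It was at 32.5, 45.9 and 11.2 CPM in metastasis lines 5, 3 and 7, at 46.0, 45.7 and 21.9 CPM in CTC lines 1, 3 and 6, and at 34.2, 15.8 and 12 CPM in primary lines 5, 7 and 8, against 26.5 CPM in the parental line. CTC lines 1 and 3 and metastasis line 3 were at nearly the same high level, and metastasis line 7 and primary line 8 were lowest. Both Jak2 and Socs3 had high and low lines within the metastasis group and within the CTC group. Across the 10 lines, log2 CPM of Jak2 and Socs3 had a Pearson r of 0.792 and a Spearman rho of 0.903, and r was 0.664 without the 2 lines farthest from the median of Jak2. Sertad3 (r = 0.961), Rptor (r = 0.948) and Cplane1 (r = 0.944) had the profiles most like Socs3.

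Socs3 was the only one of the 10 promoter entries with the letters TTCNNNGAA, a palindrome to which STAT pairs bind and which reads the same on both strands. The motif was found in 7.04% of the 32536 windows of 250 bases. The part of the Socs3 window that lies outside annotated exons, chr11:117969452-117969616 on the minus strand, is shown with the match in capitals, which begins 154 bases upstream of the start annotated by RefSeq. That start lies inside the longer GENCODE span of the gene given above, and so does the window.
Socs3 promoter: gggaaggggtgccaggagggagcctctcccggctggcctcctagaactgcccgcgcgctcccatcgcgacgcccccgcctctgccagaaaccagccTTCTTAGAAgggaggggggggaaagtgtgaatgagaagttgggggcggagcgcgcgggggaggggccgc
A match of letters is a description of the window and not of binding in these lines. The upstream cytokine gene Il6 was at or below 0.381 CPM in every library, while the receptor chain Il6ra averaged 91.4 ± 54.4 CPM in metastasis, 91.1 ± 50.9 CPM in CTC and 34.2 ± 22.4 CPM in primary lines (SD, n = 3 each), against 22.1 CPM in the parental line.

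Levels divided by the length of the annotated exons put the 9 genes in an order that depends in part on the length used. Over the 9 derived lines, the mean level was 51.2 ± 10.1 CPM per kb for Stat6, 26.3 ± 2.85 for Jak1, 23.0 ± 16.3 for Jak2, 12.5 ± 1.85 for Stat5b and 10.2 ± 5.07 for Socs3 (CPM per kb, SD, n = 9). Stat3 followed at 8.995 ± 2.37, Stat5a at 4.13 ± 2.03, Stat2 at 3.55 ± 1.85 and Socs2 at 1.69 ± 0.835 (CPM per kb, SD, n = 9). Stat6 was above Jak1, and Stat3 above Stat5a, in 9 of 9 derived lines, whereas the other neighbours in this order kept it in 5 to 7 of 9 lines and were not separated beyond their spread. In the parental line Jak1 was in place 1 at 21.3 CPM per kb, and Stat6 was in place 6 at 6.49 CPM per kb. Where each transcript was divided by its own length, the derived mean of Stat3 was 21.04 CPM per kb, which moved it to place 4. That of Socs2 was 7.79 CPM per kb, which moved it to place 8. Stat5b, Socs3 and Stat2 then moved to places 5, 6 and 9, while Stat6, Jak1, Jak2 and Stat5a kept theirs.

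**Figure D4:**
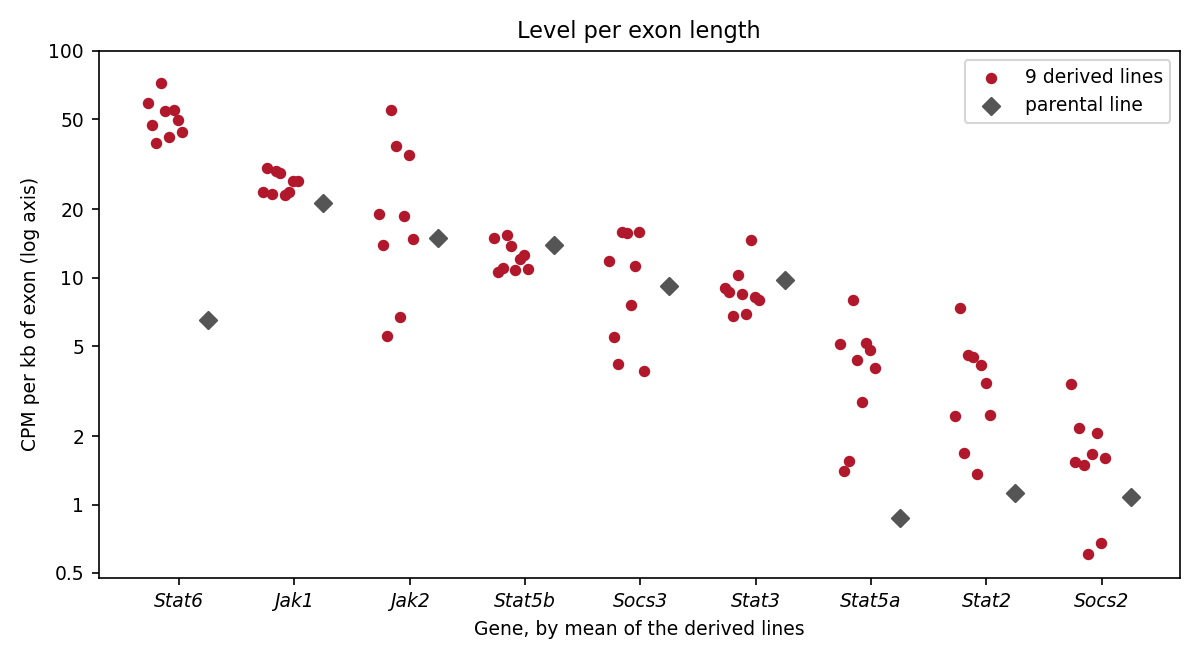
Level per kb of annotated exon (CPM per kb, log axis) for the 9 genes, ordered by the mean of the derived lines, with 9 derived lines as circles and the parental line as a diamond. Stat6 has the highest derived level, at a mean of 51.2 CPM per kb, and its parental value of 6.49 lies well below.

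For these genes, high and low lines occurred within the same group. Among the derived lines, CTC line 1 was highest in 5 of the 9 genes and above their median in 8, while metastasis line 7 was above the median in 0, CTC line 6 in 1 and primary line 8 in 1. Among all 36 pairs of the 9 genes, the highest correlation of log2 CPM over the 10 lines was between Stat2 and Jak1 (r = 0.871, rho = 0.927, and r = 0.735 without the 2 lines farthest from the median of Stat2). Over the 9 derived lines alone the order differed. There Stat5b and Stat6 came first, with r = 0.886, against -0.0253 over all 10 lines, and Stat2 and Jak1 had 0.818. Over 10 lines, Stat5b and Socs3 followed Jak2 and Socs3 with r = 0.782 and rho = 0.758, and Stat5a and Stat6 had r = 0.775 and rho = 0.903, or r = 0.78 over the 9 derived lines. The most negative pair was Jak2 and Socs2, with r = -0.483 and rho = -0.515, whereas over the 9 derived lines it was Jak1 and Socs2, with r = -0.551. All of these points share the same 10 libraries and their scaling, and 9 of them a common origin, so they are given as descriptions. The standard deviation of log2 CPM over the derived lines separated a variable set, Jak2, Socs3 (0.834), Stat5a (0.83), Socs2 (0.785) and Stat2 (0.767), from a steady one, Stat3 (0.332), Stat6 (0.271), Stat5b (0.209) and Jak1, beside a median of 0.483 over all genes compared.

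The other genes of the 3 families showed the same mix, and 0 of the 8 described here and tested passed in any comparison. Stat4, a STAT of lymphocytes, was at 0 in 9 libraries and at 0.0789 CPM in primary line 7 and was not tested. Tyk2, the JAK of interferon and interleukin 12 receptors, was at 68.5, 79.4 and 34.2 CPM in metastasis lines 5, 3 and 7, at 78.3, 68.1 and 13.3 CPM in CTC lines 1, 3 and 6, and at 52.1, 26.6 and 11.8 CPM in primary lines 5, 7 and 8, against 15.8 CPM in the parental line. Like Jak2, Tyk2 was low in CTC line 6 and primary line 8. Cish, a SOCS family gene induced by STAT5, was at 15.2, 13.9 and 2.81 CPM in metastasis lines, at 9.47, 11.9 and 1.86 CPM in CTC lines and at 5.17, 5.14 and 2.23 CPM in primary lines, against 3.39 CPM in the parental line. Jak3, the JAK of the common gamma chain, and Socs1, an inhibitor of interferon signalling, were above the parental level in all 9 derived lines, at 8.11 to 26.6 CPM against 6.09 CPM for Jak3 and at 3.19 to 11.2 CPM against 2.27 CPM for Socs1. Their log2 changes against parental were 1.33 ± 0.67 and 1.67 ± 0.71 (SE), with adjusted p of 0.506 and 0.482 in edgeR. Socs4 ran the other way in some lines, with 8.72 to 65.6 CPM in derived lines and 47.9 CPM in the parental line, and Socs7 reached 97.8 CPM in primary line 8 but 0 in CTC line 3. Socs5 was at 40.4 to 133 CPM and Socs6 at 54.1 to 97.3 CPM in derived lines, against 66.0 and 68.8 CPM in the parental line.

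**Figure D5:**
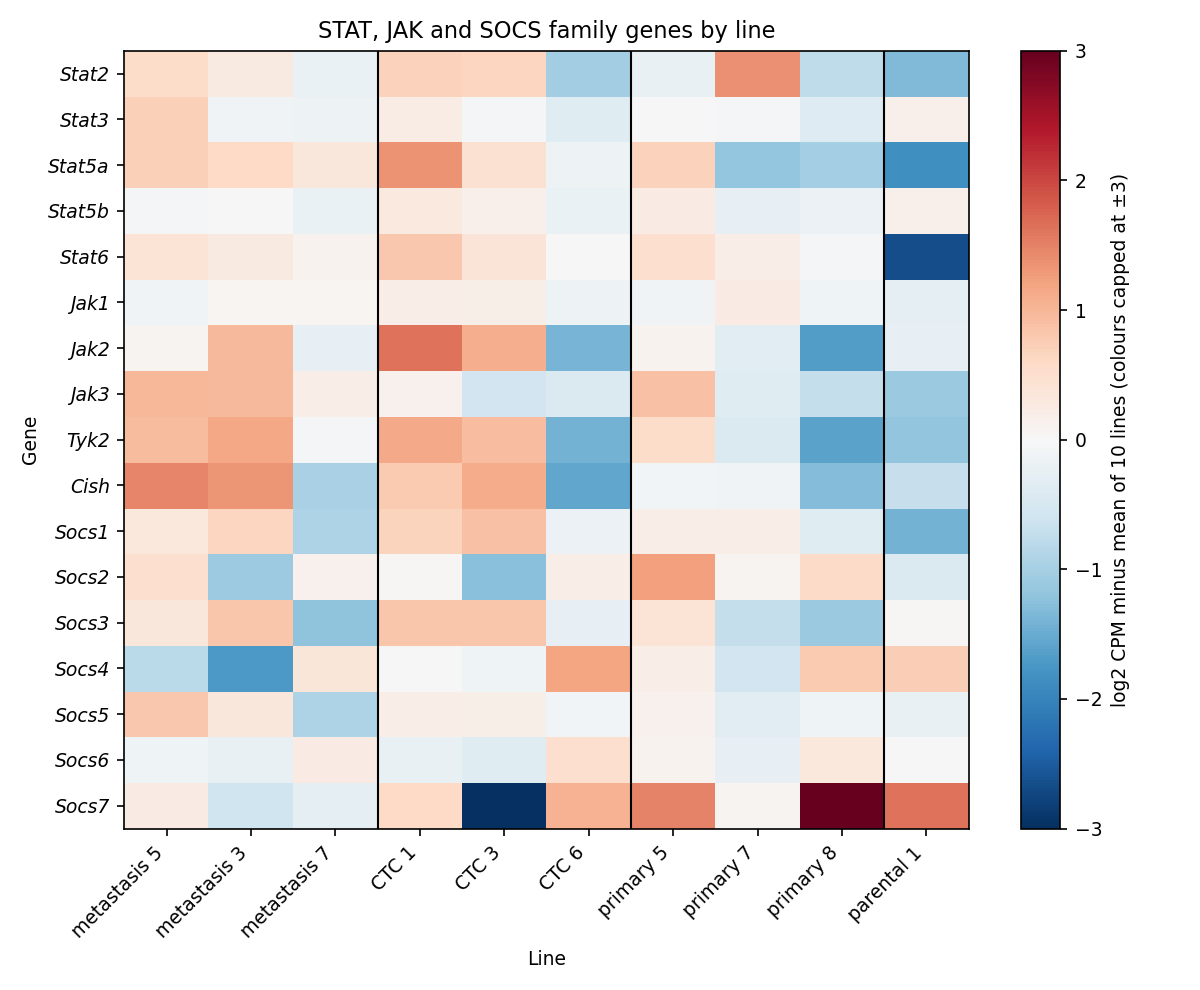
log2 CPM of 17 STAT, JAK and SOCS family genes minus the gene's mean over 10 lines, by line, with colours capped at 3 in either direction. The parental column is lowest in Stat2, Stat5a, Stat6, Jak1, Jak3 and Socs1, and CTC 6 and primary 8 are low together in Jak2, Tyk2 and Cish.

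Of the pathway lists around the members, 0 genes passed in any comparison. Of 34 receptor chains, 26 were tested. Against parental, 7 of these had an unadjusted p under 0.05, beside 10.3% of all genes, and 11 had all 9 derived lines on 1 side of the parental line, beside 29.5% of all genes. For any difference among the derived groups 0 of the 26 had an unadjusted p under 0.05, beside 5.2% of all genes. In metastasis against primary lines there was 1, beside 8.29%. There 17 were higher and 9 lower, where 50.3% of all genes were higher. Il15ra, the private chain of the interleukin 15 receptor, averaged 5.33 ± 1.31 CPM in metastasis, 8.19 ± 2.25 CPM in CTC and 11.7 ± 4.47 CPM in primary lines (SD, n = 3 each), against 29.0 CPM in the parental line. Crlf2, the receptor of Tslp, averaged 29.2 ± 11.7 CPM in metastasis, 24.6 ± 2.27 CPM in CTC and 17.0 ± 7.41 CPM in primary lines (SD, n = 3 each), against 12.9 CPM in the parental line. Osmr, the oncostatin M receptor, reached 36.3 CPM in 1 metastasis line and was at most 12.6 CPM in the other groups. Prlr, the prolactin receptor that feeds STAT5 in the mammary gland, was at 0 in all 10 libraries.

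Of 27 ligands, 12 were tested, and 6 were higher and 6 lower in metastasis against primary lines, where 50.3% of all genes were higher. In that comparison 0 had an unadjusted p under 0.05, beside 8.29% of all genes. There were 2 in CTC against primary lines and 1 in metastasis against CTC lines, beside 4.06% and 3.29%. For any difference there were 2, beside 5.2%, and against parental 2, beside 10.3% of all genes. Tslp, a cytokine that signals through STAT5, averaged 87.8 ± 63.8 CPM in metastasis, 57.0 ± 43.3 CPM in CTC and 31.9 ± 28.2 CPM in primary lines (SD, n = 3 each), against 7.17 CPM in the parental line. Its spread within each group was a large part of its mean. Il7 averaged 2.54 ± 0.18 CPM in metastasis, 1.997 ± 0.156 CPM in CTC and 4.45 ± 1.62 CPM in primary lines (SD, n = 3 each), against 6.15 CPM in the parental line. Lif averaged 6.69 ± 8.33 CPM in metastasis lines and Clcf1 31.6 ± 5.97 CPM, against 5.59 ± 4.54 and 35.0 ± 8.01 CPM in primary lines (SD, n = 3 each).

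Among genes known as targets, 21 of 22 STAT3 targets, 7 of 14 STAT5 targets and 7 of 12 STAT6 targets were tested. Against parental, 2, 0 and 1 of them had an unadjusted p under 0.05, beside 10.3% of all genes. The median log2 changes against parental were 0.19, 0.23 and 0.99, beside 0.10 over all genes. Of the 7 STAT6 targets, 5 were higher and 2 lower, where 53.9% of all genes were higher. In 2 of the 7 all 9 derived lines were on 1 side of the parental line, beside 29.5% of all genes. Junb, an AP-1 gene induced by STAT3, averaged 192 ± 58.4 CPM in metastasis, 197 ± 65.8 CPM in CTC and 374 ± 187 CPM in primary lines (SD, n = 3 each), against 716 CPM in the parental line, so that all 9 derived lines were below it. Birc5, Cebpd and Vegfa averaged 35.2 ± 31.4, 9.29 ± 6.98 and 213 ± 64.1 CPM in metastasis lines, against 95.1 ± 43.1, 8.76 ± 1.29 and 164 ± 63.5 CPM in primary lines (SD, n = 3 each). In metastasis against primary lines 12 of the 21 STAT3 targets were higher and 9 lower, where 50.3% of all genes were higher. Their median log2 change was 0.01, beside 0.01 over all genes. Of the 21, 1 had an unadjusted p under 0.05 in edgeR, beside 8.29% of all genes. The STAT5 targets Ccnd1, Pim1 and Bcl2l1 averaged 859 ± 563, 47.0 ± 15.4 and 81.7 ± 20.4 CPM in metastasis lines, against 979 ± 305, 40.5 ± 9.38 and 81.1 ± 26.3 CPM in primary lines (SD, n = 3 each). In that comparison 5 of the 7 STAT5 targets were higher and 2 lower, and 0 had an unadjusted p under 0.05 in edgeR. The milk protein gene Csn2, a STAT5 target of the lactating gland, was at 0 in all 10 libraries. For STAT6, the target Gata3 averaged 78.7 ± 28.5 CPM in derived lines (SD, n = 9), against 104.5 CPM in the parental line, and the receptor gene Il4ra 21.98 ± 11.98 CPM, against 20.1 CPM. Arg1, a STAT6 target of macrophages, was at most 0.342 CPM, and of these 3 genes Gata3 and Il4ra overlapped the parental level. Socs1, also on the STAT6 list, was above the parental line in all 9 derived lines, at 3.19 to 11.2 CPM against 2.27 CPM. All 12 negative regulators outside the SOCS family were tested. At an unadjusted p under 0.05 there were 0 of them in metastasis against primary lines and 1 against parental, beside 8.29% and 10.3% of all genes. Of these, the phosphatase gene Ptpn11 averaged 261 ± 21.3 CPM in metastasis, 289 ± 68.1 CPM in CTC and 374 ± 98.2 CPM in primary lines (SD, n = 3 each), against 410.1 CPM in the parental line. Usp18, Pias1 and Cbl averaged 2.70 ± 0.754, 35.1 ± 8.22 and 48.4 ± 37.1 CPM in metastasis lines, against 8.34 ± 9.26, 33.3 ± 8.02 and 12.03 ± 13.4 CPM in primary lines (SD, n = 3 each).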

How the data were processed

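RNA from 10 lines was sequenced paired-end on an Illumina HiSeq after a TruSeq total RNA preparation, per the labels' protocols. The unit of both deposited tables, by gene and by transcript, is the estimated count, made by the authors with HISAT2 2.1.0 and StringTie 2.0.3 on GRCm38, per the submitters' processing notes, which also name DESeq2 1.26.0. The order of these steps, the annotation release and the use of strand are not given in the sources used here. Estimated counts were deposited as whole numbers, so rounding changed nothing. StringTie shares reads among overlapping transcripts, so overlapping genes, antisense neighbours and near-identical copies are uncertain. GENCODE M21, which holds all 141692 Ensembl transcripts of the table, gave positions, lengths and coding sequences. Gene counts equalled the sum of their transcripts for all 9 members in all 10 libraries. Promoters are from RefSeq (GRCm38.p6).

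Of 72544 entries, 17127 are assembled and carry no gene name. They took 19.7% to 22.8% of the counts of a library and were left out of library sizes and tests. In the transcript table, 1 entry filled in 1 column only was left out. Genes (19935 tested) and transcripts (61244 tested) were filtered with filterByExpr at its defaults, scaled with TMM and tested with edgeR 4.0.16 (quasi-likelihood, R 4.3.3) in 1 fit of all 10 libraries in 4 groups, with Benjamini-Hochberg adjustment at 0.05 over the whole table. The parental line has 1 library, assumed to vary like the others. SE was computed as the size of the log2 change over the square root of F. Correlations and spreads use log2 CPM with a prior count of 2. The fit was tested on simulated data with a smaller spread than that of these data, so that check does not measure power here. Alternatives were other scalings and filters, all entries, DESeq2 1.42.0, limma-voom (limma 3.58.1), the title number as a block, fits of only the groups compared and leaving out lines. Those on transcripts were chosen after seeing the data.

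Metastasis lines share title numbers with primary lines (5 and 7) and a CTC line (3). Deviations from group means correlated at 0.12 to 0.406 in these 3 pairs, against a median of -0.0493 over other pairs. Some pairs with different numbers correlated more, among them CTC 6 with metastasis 7 (0.506) and primary 8 with CTC 6 (0.43). The values thus do not settle whether the numbers pair the lines, and the labels do not say so. The main fit had no block, so its tests ignore any such pairing. The number was fitted as a block in alternatives only. Fitted as a random block, the correlation of same-number lines was 0.484.

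The 9 members and the gene lists were chosen with earlier results of these data known. Named beside them are other family genes (1 is not reported here), the 4 genes of each list with the smallest p for any difference among derived groups and a mean log2 CPM of at least 1, and the 3 genes most alike to each member among 10274 candidates. Log2 changes of members are given where groups do not overlap, where the unadjusted p is under 0.05, or where the parental value lies outside the derived range. Other genes and changes, among them Prlr, Csn2, Arg1, Il6, Ptprc, Sftpc, Col1a1 and Stat3-202, were chosen for their known role or after their values were seen.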

Additional observations from a re-analysis of the deposited data

How the results depend on the processing

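The count of members that passed stayed at 0 under 20 alternatives for metastasis against primary lines, CTC against primary lines, metastasis against CTC lines and any difference among them, with lowest adjusted p of 0.264, 0.497, 0.996 and 0.499 over the edgeR, DESeq2 and limma fits. For derived lines against parental it stayed at 0 under 16 of 18 alternatives and was 1, Stat6, with DESeq2 and with limma-voom. Leaving out each derived line in turn gave 0 to 0 members in every comparison, and log2 changes against parental of 2.90 to 3.05 for Stat6, 1.91 to 2.31 for Stat5a, 1.37 to 1.79 for Stat2 and 0.28 to 0.35 for Jak1. Over the same lines the CTC against primary change was 0.79 to 1.85 for Jak2 and -1.18 to -0.57 for Socs2. With the fixed replicate block these changes were 0.17 and -0.48, and with the random block 0.84 and -0.73. No CTC line shares a number with a primary line, so the fixed-block values come only from lines that share a number with a metastasis line. No change reversed its direction. With the title number as a replicate block, fixed or random, 0 members passed in each comparison fitted. With the random block the adjusted p of Stat6 against parental was 0.0526 in limma, and the fit with a fixed block has only 1 residual degree of freedom. Over all genes, DESeq2 called 175 genes in metastasis against primary lines, 66 in CTC against primary lines, 27 in metastasis against CTC lines, 137 for any difference and 671 against parental, where edgeR called 0, 0, 1, 0 and 4 and limma-voom 0, 0, 1, 0 and 23; the cause was not tested. The count of member transcripts that passed stayed at 0 under 14 alternatives chosen after seeing the data. Division by transcript lengths in place of exon lengths moved the mean level over all lines by more than its spread for Stat2 (5.42 against 3.31 CPM per kb), Stat3 (20.99 against 9.08), Stat5a (7.21 against 3.81), Jak1 (38.8 against 25.8) and Socs2 (7.50 against 1.63). The parental Stat5a value rests on 438 counts (95% exact Poisson interval 398 to 481, counting error only), in 1 library.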
